A study of Rattus norvegicus with 6 samples.

Results

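The Notch genes of the rat spleen are described here through 4 receptors (Notch1, Notch2, Notch3 and Notch4), 4 ligands (Dll1, Dll4, Jag1 and Jag2) and 2 target genes (Hes1 and Hey1). They were chosen by name, as the core of the pathway, with earlier results of these data known. All 10 were measured among 18166 genes, each by the only transcript cluster that carried its symbol alone. A transcript cluster is the array's set of probes along 1 transcript, and its value is a log2 intensity, so that a difference of 1 is a doubling. Whole spleens came from Sprague-Dawley rats, 3 with partial portal vein ligation (PPVL) and 3 that were sham-operated. PPVL leaves a calibrated narrowing of the portal vein and raises the pressure in the veins that drain the spleen, and the sham rats had the same operation without the ligature. Both groups were sampled 10 days after surgery, with 1 array for each rat, and the question is how portal hypertension changes gene expression in the enlarged spleen. The samples were pieces of whole spleen, so each value is a mixture over all the cell types of the organ.

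Notch receptors are single-pass membrane proteins that are activated by a ligand on a neighboring cell, cut by an ADAM protease and then by γ-secretase, and their intracellular part enters the nucleus, where it joins the DNA-binding protein RBPJ and a Mastermind coactivator at target genes such as Hes1 and Hey1. In the mouse spleen, Notch2 on B cells and Dll1 on stromal cells are required for marginal zone B cells, and Notch2 is also required for the ESAM-positive dendritic cells. In blood vessels, Dll4, Jag1 and Notch4 are known from the endothelium, Notch3 from smooth muscle, and Hey1 from arterial identity.

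The promoters of the family differ in how often they hold a core of letters that RBPJ recognizes. That of Hes1 is shown first because Hes1 had the largest difference between the groups among the 10 genes. RefSeq (GRCr8) promoters, which run from 250 bases before to 50 bases after the start of a gene, were found for 8 of the 10 genes, without Dll4 and Hey1. The RBPJ core TGGGAA, searched on both strands, was present in 4 of the 8, namely Hes1, Dll1, Notch4 and Notch3. In all 33469 rat promoters of the same length, 25.7% held the core at least once. Hes1 lies on the minus strand of chr11:84210632-84213045, and the 250 bases before its start, chr11:84213046-84213295, are written 5′ to 3′ along the gene with each core in capitals.
Hes1: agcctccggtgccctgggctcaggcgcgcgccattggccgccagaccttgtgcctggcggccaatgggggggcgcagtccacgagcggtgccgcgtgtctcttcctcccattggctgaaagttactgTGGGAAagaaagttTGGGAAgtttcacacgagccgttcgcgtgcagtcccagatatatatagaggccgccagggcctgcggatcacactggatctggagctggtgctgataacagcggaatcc
The 2 cores of Hes1 stand on 1 strand with 8 bases between them, from -123 to -118 and from -109 to -104 relative to the start. Sites with other letters were not searched, so these 2 need not be the pair of sites that RBPJ uses. Only 119 promoters, 0.356% of all, had 2 cores on 1 strand with starts at most 20 bases apart. That rule follows the arrangement of Hes1 itself, so the share is no test of how unusual its promoter is. Dll1 (chr1:64985161-64993274) and Notch4 (chr20:4164969-4189072) also had 2 cores each, and 3.85% of all promoters had 2 or more, but those of Dll1 and Notch4 lay farther apart. Their surroundings are given as stretches of 30 bases along the gene, where a core on the opposite strand reads TTCCCA.
Dll1, -197 to -168: acctccagcccgTTCCCAccgtgcccctcg
Dll1, -94 to -65: tgcaagctctctTGGGAAttaagctgaaca
Notch4, -250 to -221: actgTTCCCAgacctgtaaaaaggaaacca
Notch4, -105 to -76: tactccgttctcTTCCCAgggaggcccctc
The single core of Notch3 lay after the start, from 43 to 48. A match describes the letters and does not show that RBPJ was bound, and its absence from a promoter says only that these letters are not in this window.

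The threshold was an unadjusted limma p under 0.05, which 769 of 18166 genes passed (4.23%), 488 of them higher (2.69%) and 281 lower (1.55%) in PPVL spleens. Of all 36685 clusters 4.81% passed it. After Benjamini-Hochberg adjustment over the clusters 0 remained under 0.05, with a lowest adjusted value among genes of 0.753. The array of PPVL rat 1 stood apart. All 19 measured markers of the exocrine pancreas were highest in this rat, with a median of 20.4 times the median of the other 5 rats. Their summed level was 14.81 in PPVL rat 1, 10.02 in PPVL rat 2 and 9.90 in PPVL rat 3, against 9.96, 9.95 and 9.98 in the sham rats on the log2 scale. The markers of spleen stroma and red pulp macrophages, 8 of 9 listed, had summed log2 levels of 13.18 to 13.38 in PPVL spleens and 13.12 to 13.22 in sham spleens. Values without this rat stand beside most of the Notch genes.

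Hes1 was higher in PPVL spleens, and it was the only gene of the family past the threshold. No receptor and no ligand passed the test, and all of these had a 95% interval that included 0. Family members with positive log2 fold changes numbered 6 and those with negative ones 4, and the median was 0.08, against 0.00483 over all genes. A share of 4.23% over 10 genes comes to fewer than 1 gene, so that the count of 1 of 10 is no result about the family as a whole. In these whole spleens, fewer cells of a type and less RNA per cell cannot be told apart.

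**Figure D1:**
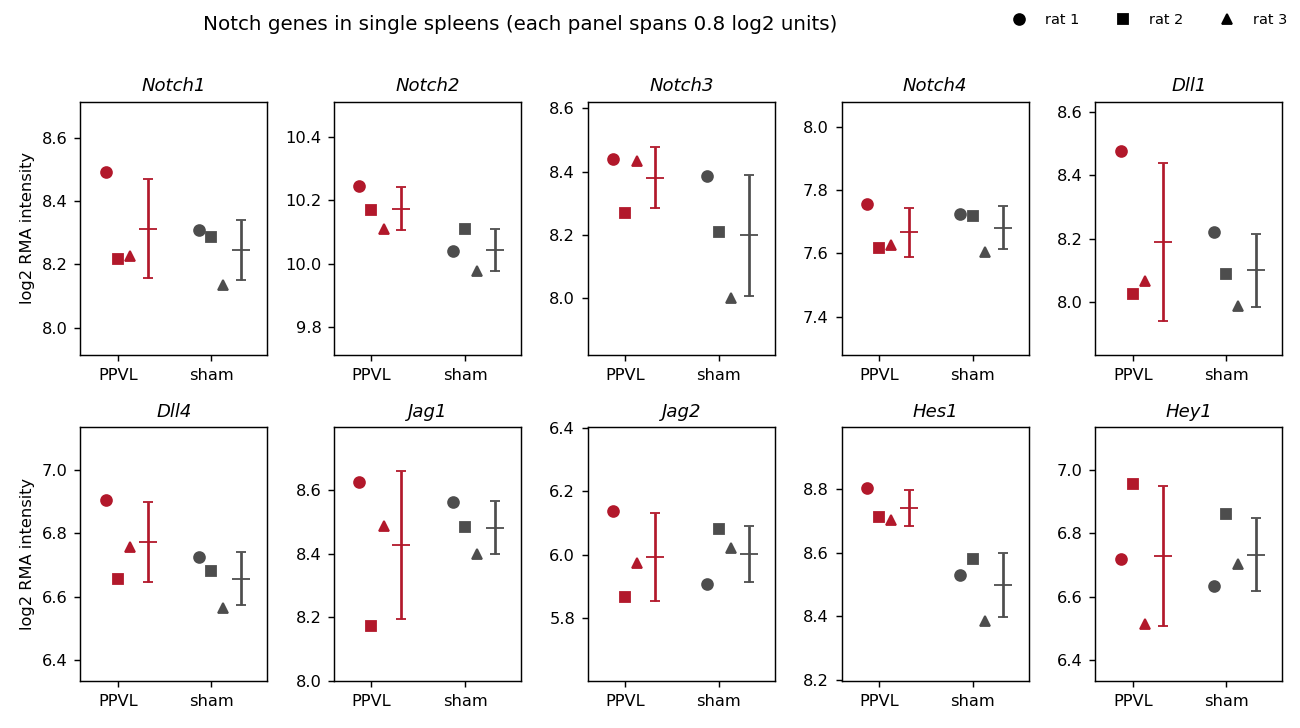
Log2 RMA intensity (y axis, a span of 0.8 in every panel) of the 10 Notch genes in 3 PPVL and 3 sham spleens. Points are single rats, and the cross bar and whiskers give the mean ± SD of each group. Hes1 is the only panel in which all PPVL points lie above all sham points.

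Among the receptors, Notch3, the receptor of vascular smooth muscle, had the largest difference. Its log2 level was 8.44, 8.27 and 8.43 in PPVL rats 1, 2 and 3, against 8.38, 8.21 and 8.001 in sham rats 1, 2 and 3. Sham rat 3 lay below all others, and sham rat 1 lay within the PPVL range. The log2 fold change was 0.18 (SE 0.12, 95% interval -0.10 to 0.47, limma adjusted p = 0.973, exact permutation p = 0.2), and with 1 rat left out it ranged from 0.08 without sham rat 3 to 0.28 without sham rat 1, with 0.15 without PPVL rat 1.

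Notch2, the receptor needed by marginal zone B cells in the mouse, had log2 levels of 10.24, 10.17 and 10.11 in PPVL rats and of 10.04, 10.11 and 9.98 in sham rats. The groups met at 10.11, where PPVL rat 3 and sham rat 2 were level, and PPVL rats 1 and 2 lay above every sham rat. The group means were 10.17 ± 0.07 in PPVL spleens and 10.04 ± 0.07 in sham spleens (SD, n = 3 each), a log2 fold change of 0.13 (SE 0.09, 95% interval -0.07 to 0.33, limma adjusted p = 0.973, exact permutation p = 0.2), which was 0.10 without PPVL rat 1. The list of marginal zone B cell markers, 6 of 7 measured, had no gene past the threshold and a median log2 fold change of -0.00, with 3 positive and 3 negative values.

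Notch1, the receptor that commits progenitors to the T cell lineage, had log2 levels of 8.49, 8.22 and 8.23 in PPVL rats and of 8.31, 8.29 and 8.14 in sham rats. PPVL rat 1 alone lay above the sham rats. The log2 fold change of Notch1 was 0.07 (SE 0.11, 95% interval -0.19 to 0.33, limma adjusted p = 0.975, exact permutation p = 0.6), and it was -0.02 without PPVL rat 1. T cell markers, all 10 measured, had no gene past the threshold, with 5 positive and 5 negative values.

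Notch4, a receptor of the endothelium, differed least among the receptors. It had log2 levels of 7.75, 7.62 and 7.63 in PPVL rats and of 7.72, 7.72 and 7.60 in sham rats. PPVL rat 1 was the highest and sham rat 3 the lowest, and PPVL rats 2 and 3 lay within the sham range. Its log2 fold change was -0.02 (SE 0.09, 95% interval -0.22 to 0.19, limma adjusted p = 0.995, exact permutation p = 1). Across the 4 receptors the intervals reached at most 0.47 upward (Notch3) and -0.22 downward (Notch4). With 3 rats in each group, each receptor's interval left differences of either sign possible within its own bounds.

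**Figure D2:**
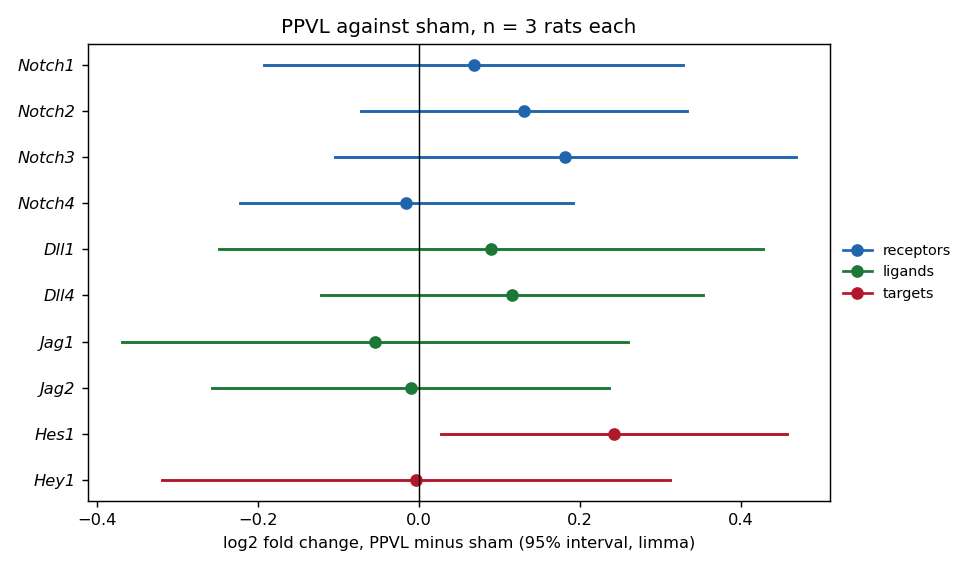
Log2 fold change of each Notch gene, PPVL minus sham (x axis), with its 95% interval from limma (n = 3 rats in each group). Colors mark receptors, ligands and targets, and the interval of Hes1, from 0.03 to 0.46, is the only one that lies to 1 side of 0.

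The ligands showed no difference past the threshold, and PPVL rat 1 had the highest level of each of the 4. Dll1, the Delta-like ligand of the splenic stroma, had log2 levels of 8.48, 8.03 and 8.07 in PPVL rats and of 8.22, 8.09 and 7.99 in sham rats. PPVL rats 2 and 3 lay within the sham range, while PPVL rat 1 lay 0.33 above the mean of the gene, the largest upward deviation in the family. The log2 fold change of Dll1 was 0.09 (SE 0.14, 95% interval -0.25 to 0.43, limma adjusted p = 0.974, exact permutation p = 0.7), and without PPVL rat 1 it was -0.05.

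Dll4, the Delta-like ligand of arterial and sprouting endothelium, had log2 levels of 6.90, 6.66 and 6.76 in PPVL rats and of 6.72, 6.68 and 6.56 in sham rats. PPVL rats 1 and 3 lay above all sham rats and PPVL rat 2 within their range. Its log2 fold change was 0.12 (SE 0.10, 95% interval -0.12 to 0.35, limma adjusted p = 0.973, exact permutation p = 0.3), and 0.05 without PPVL rat 1.

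Jag1, a ligand of endothelium and smooth muscle, was the most variable gene in PPVL spleens after Dll1. It had log2 levels of 8.63, 8.17 and 8.49 in PPVL rats and of 8.56, 8.48 and 8.40 in sham rats. PPVL rats held both the highest and the lowest value, so that the sham rats lay between them. The log2 fold change was -0.05 (SE 0.13, 95% interval -0.37 to 0.26, limma adjusted p = 0.984, exact permutation p = 0.9), and it was -0.15 without PPVL rat 1 and 0.07 without PPVL rat 2.

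Jag2, the other Jagged ligand, had log2 levels of 6.14, 5.87 and 5.97 in PPVL rats and of 5.91, 6.08 and 6.02 in sham rats, again with the sham rats between the extremes of the PPVL rats. Its log2 fold change was -0.01 (SE 0.10, 95% interval -0.26 to 0.24, limma adjusted p = 0.999, exact permutation p = 1), and it was -0.08 without PPVL rat 1 and 0.05 without PPVL rat 2. The arterial markers, all 7 measured, had no gene past the threshold and a median log2 fold change of 0.02.

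Of the targets, Hes1 passed the test and Hey1 did not. Hes1 encodes a basic helix-loop-helix repressor that is induced directly by Notch in many tissues, and also by other signals. Its log2 level was 8.81, 8.71 and 8.70 in PPVL rats, against 8.53, 8.58 and 8.39 in sham rats. The groups did not overlap, and the lowest PPVL rat lay above the highest sham rat. Of all genes, 6.64% had groups that did not overlap with PPVL higher. The means were 8.74 ± 0.06 in PPVL spleens and 8.50 ± 0.10 in sham spleens (SD, n = 3 each), a 1.18-fold difference. The log2 fold change was 0.24 (SE 0.09, 95% interval 0.03 to 0.46). In limma the unadjusted p-value was 0.0321, past the threshold, and the adjusted p = 0.973 over all clusters was not, with adjusted values from 0.820 to 1.00 under the alternatives. The exact permutation p = 0.1 is the smallest that 3 against 3 rats can give.

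The call for Hes1 was close to the threshold. Leaving out any rat but sham rat 2 ended it, with unadjusted limma p-values from 0.0539 without sham rat 1 to 0.101 without PPVL rat 1. Centring each array on its median (0.0537) and blocking on replicate number (0.0531) also ended the call. Across the alternatives the log2 fold change ran from 0.15 without PPVL rat 1 and sham rat 3 to 0.28 without sham rat 2. It was always positive, but leaving out rats could not turn its sign, because the groups did not overlap.

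**Figure D3:**
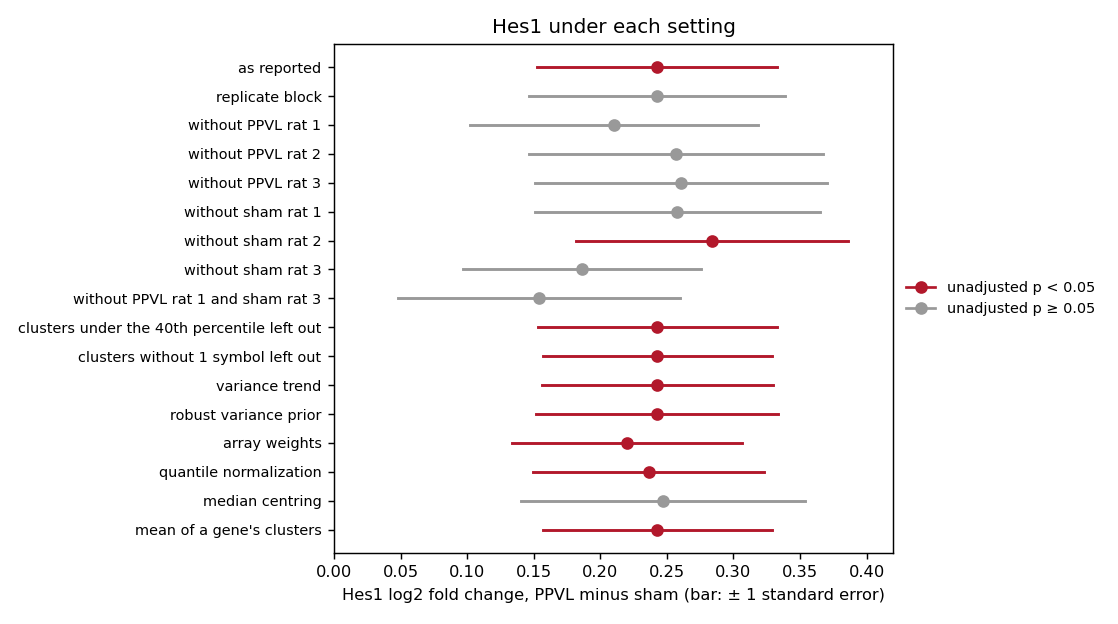
Log2 fold change of Hes1, PPVL minus sham (x axis), as reported and under 16 alternatives (rows), with bars of ± 1 standard error. Red marks an unadjusted limma p under 0.05, reached as reported and under 8 of the 16 alternatives.

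Hey1, which encodes a related repressor of arterial and cardiac development, had equal group means. Its log2 level was 6.72, 6.95 and 6.51 in PPVL rats, against 6.63, 6.86 and 6.70 in sham rats. PPVL rat 2 was the highest and PPVL rat 3 the lowest of the 6. The means were 6.73 ± 0.22 in PPVL spleens and 6.73 ± 0.12 in sham spleens (SD, n = 3 each), with a log2 fold change of -0.00 (SE 0.13, 95% interval -0.32 to 0.31, limma adjusted p = 1.00, exact permutation p = 1). Whether Hes1 and Hey1 differed in their response was not tested.

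Single rats lay high or low for most of the family. PPVL rat 1 had the highest level of 9 of the 10 genes, all but Hey1, and it was the highest rat for 19.2% of all genes. Sham rat 3 had the lowest level of 7 of the 10, namely all 4 receptors, Dll1, Dll4 and Hes1, while over all genes it was the lowest rat for 21.7% and the highest for 22.4%. On average over the family, PPVL rat 1 deviated by 0.16 from the gene means, PPVL rat 2 by -0.04 and PPVL rat 3 by -0.01, against 0.00, 0.01 and -0.12 in sham rats 1, 2 and 3. The family's median log2 fold change was -0.01 without PPVL rat 1, and it was -0.04 when sham rat 3 was left out as well, an alternative chosen after seeing the data. The rat with the high pancreas markers was thus also the rat with the highest Notch levels. PPVL rat 1 also had the lowest summed log2 level of erythroid markers (11.60). Its summed levels of fibroblast and matrix (13.98), smooth muscle and pericyte (12.90) and T cell markers (13.25) were the highest. The part of any of these tissues or cells in the Notch levels was not tested. For Hes1, the log2 fold change without PPVL rat 1 was 0.21.

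**Figure D4:**
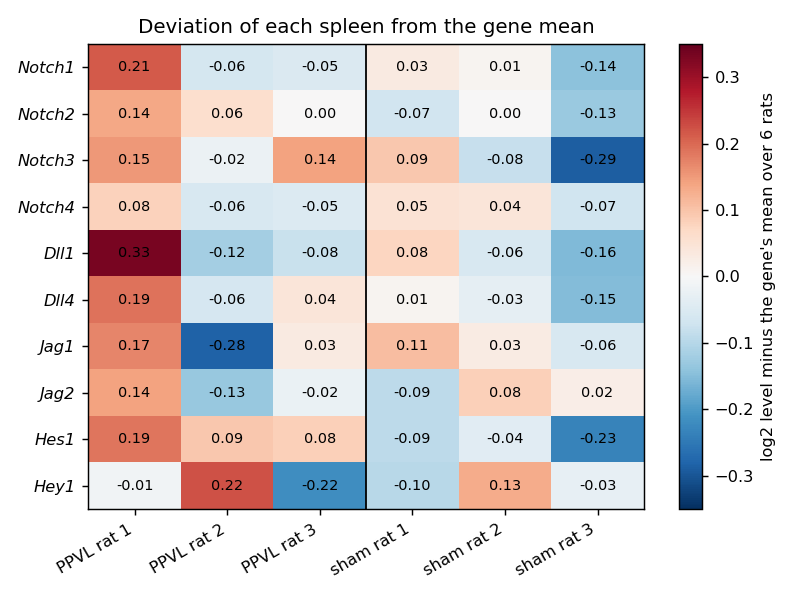
Deviation of each spleen from the mean of the gene over the 6 rats, in log2 units (color and printed value), for the 10 Notch genes (rows), with PPVL rats to the left and sham rats to the right of the line. PPVL rat 1 is above the mean for 9 genes and sham rat 3 below it for 9.

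Beyond the core family, 55 of 65 listed pathway genes were measured, and 2 passed the test, both lower in PPVL spleens. The median log2 fold change of the 55 was 0.02. Every pathway and marker gene named from here on had a limma adjusted p = 0.973, apart from Itga8 with 0.847, and those said to pass were past the unadjusted threshold. The 10 that were not measured by a cluster with 1 symbol include Rbpj itself and the sheddase Adam10. Counts of 0 higher and 2 lower among 55 genes, beside 2.69% and 1.55% of all genes, are no result about the pathway as a whole. Groups did not overlap for 4 of the 55 with PPVL higher and for 3 with PPVL lower, beside 6.64% and 4.70% of all genes. These counts are no such result either.

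Dtx3l, a ubiquitin ligase of the Deltex family that is also induced by interferon, was the pathway gene with the smallest p. It had log2 levels of 8.25, 8.19 and 8.25 in PPVL rats and of 8.54, 8.59 and 8.47 in sham rats. The groups did not overlap, as for 4.70% of all genes with PPVL lower. Dtx3l fell by 0.30 on the log2 scale (SE 0.08, limma adjusted p = 0.973, exact permutation p = 0.1). Its unadjusted limma p-value was 0.00757, and it passed the unadjusted threshold under every alternative.

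Adam17, a protease that can make the first cut in the receptor, had log2 levels of 9.59, 9.51 and 9.46 in PPVL rats and of 9.66, 9.73 and 9.76 in sham rats. The groups again did not overlap, as for 4.70% of all genes with PPVL lower. Adam17 fell by 0.20 (SE 0.08, limma adjusted p = 0.973, exact permutation p = 0.1), with an unadjusted limma p-value of 0.0479. Leaving out any 1 rat ended the call of Adam17, with unadjusted limma p-values from 0.0557 without sham rat 1 to 0.135 without PPVL rat 3. Quantile normalization, median centring, array weights and blocking on replicate number (0.0996) also ended it. The other 5 measured genes of the cleavage list did not pass. Among them, the γ-secretase subunit Ncstn had a log2 fold change of 0.10 (SE 0.09).

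The genes that set the sensitivity of the receptor to its ligands gave values of opposite sign that did not pass. Mfng, a Fringe glycosyltransferase, had log2 levels of 9.21, 9.30 and 9.17 in PPVL rats and of 9.10, 9.03 and 9.004 in sham rats (log2 fold change 0.18, SE 0.08). These groups did not overlap, as for 6.64% of all genes with PPVL higher. Lfng, another Fringe, had a log2 fold change of -0.12 (SE 0.10). Of the other ligands, 5 of 5 measured, none passed, and the atypical ligand Dlk1 had -0.09 (SE 0.09). The inhibitory ligand Dll3 had 0.16 (SE 0.17), which became 0.04 when PPVL rat 1 was left out, 0.03 when sham rat 1 was and 0.30 when sham rat 3 was.

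In the nucleus, none of 6 measured activators and none of 10 measured corepressors passed. The coactivator Maml2 had log2 levels of 9.24, 8.94 and 8.93 in PPVL rats and of 8.85, 8.85 and 8.70 in sham rats. Its groups did not overlap, as for 6.64% of all genes with PPVL higher. The log2 fold change of Maml2 was 0.24 (SE 0.11), or 0.13 without PPVL rat 1. The histone acetyltransferase Kat2b had a log2 fold change of -0.17 (SE 0.11), the histone deacetylase Hdac1 -0.25 (SE 0.15) and the corepressor Tle3 0.20 (SE 0.12). Numbl, an adaptor related to the Notch inhibitor Numb, had 0.19 (SE 0.11) in the list of ubiquitin and trafficking genes. Hdac1 was past the unadjusted threshold without sham rat 3 (log2 fold change -0.40) and with array weights (-0.31), and Numbl without PPVL rat 3 (0.29).

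Other targets of Notch, 13 of 13 measured, gave no gene past the threshold, with 7 positive and 6 negative values and a median of 0.05. Hey2, the nearest relative of Hey1, had log2 levels of 6.29, 6.15 and 5.86 in PPVL rats and of 6.49, 6.22 and 6.34 in sham rats. Its log2 fold change was -0.25 (SE 0.14), and -0.13 without PPVL rat 3. The cell cycle inhibitor Cdkn1a (0.28, SE 0.13), the growth regulator Myc (0.19, SE 0.10) and the T cell transcription factor Gata3 (0.27, SE 0.17) had positive values. The groups did not overlap for Cdkn1a and Myc, as for 6.64% of all genes with PPVL higher. Without PPVL rat 1 Cdkn1a had 0.16 and Myc 0.11, and without sham rat 3 Gata3 had 0.12. Cdkn1a passed the unadjusted threshold without PPVL rat 3 (0.36) and Gata3 without sham rat 1 (0.41). Each of these genes also answers to other signals.

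**Figure D5:**
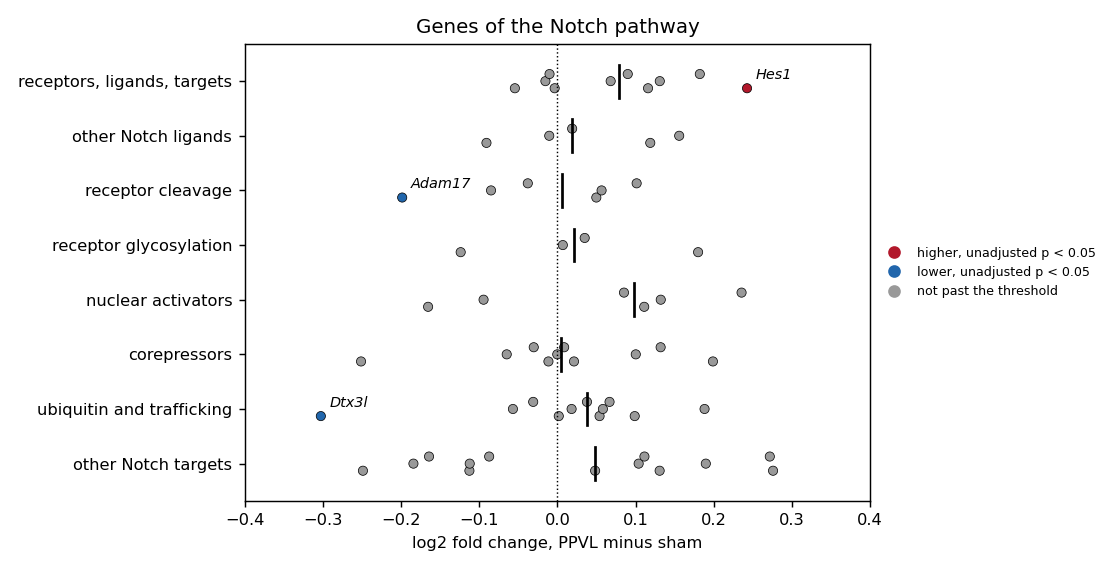
Log2 fold change, PPVL minus sham (x axis), of the 10 Notch genes and of 55 pathway genes in 7 lists (rows). Points are genes, black bars the median of each list, and colors mark an unadjusted limma p under 0.05, which Hes1 (higher), Adam17 and Dtx3l (both lower) passed.

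Some markers of vessel walls and stroma, which are known to carry Notch genes, were also higher in PPVL spleens. Of all genes, 2.69% passed the test with PPVL higher and 9394 of 18166 had positive values, and the marker lists were chosen with earlier results known. Positive values were not particular to vessel walls and stroma, as 92 of all 127 measured markers had them. They included all 8 macrophage markers, 5 of 6 B cell markers and 4 of 7 arterial markers, while all 7 erythroid markers were negative. Of the markers of smooth muscle and pericytes, 11 of 13 measured (without Acta2 and Cnn1), all 11 had positive log2 fold changes. Itga8, an integrin subunit (0.79, SE 0.15), and Pdgfrb, a receptor of pericytes (0.51, SE 0.18), passed the test. The summed log2 level of this list was 12.90, 12.86 and 12.67 in PPVL rats, against 12.55, 12.65 and 12.58 in sham rats, without overlap. Summed levels also did not overlap for the receptors (lowest PPVL 10.93, highest sham 10.91) and the targets (8.99 and 8.96). The same held for the fibroblast and matrix markers below (13.330 and 13.326). For summed levels there is no share over all genes to set beside this. Pdgfrb was no longer past the threshold without PPVL rat 1 or without sham rat 3.

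Fibroblast and matrix markers, all 11 measured, had 3 genes past the test, all collagens, beside 2.69% of all genes with PPVL higher. Col1a1 had a log2 fold change of 1.51 (SE 0.43), Col3a1 0.92 (SE 0.33) and Col1a2 0.91 (SE 0.35). Without PPVL rat 1 these values were 1.06, 0.57 and 0.54, and Col1a1 alone was still past the threshold. The summed log2 level of this list was 13.98, 13.40 and 13.33 in PPVL rats and 13.23, 13.33 and 13.23 in sham rats, with PPVL rat 1 the highest. Endothelial markers, 12 of 16 measured (without Pecam1, Kdr, Eng and Stab2), had positive values for 10 genes, and the guidance receptor Robo4 passed (0.40, SE 0.11). Endothelial summed log2 levels of 11.80, 11.67 and 11.84 in PPVL rats overlapped those of 11.70, 11.74 and 11.48 in sham rats, with sham rat 3 the lowest as for 7 of the Notch genes. The part of these cells in the levels of Hes1 and of the other Notch genes was not tested.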

How the data were processed

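Spleen RNA of 3 PPVL and 3 sham rats was hybridized to Affymetrix rat whole-transcript arrays, 1 per rat. The authors used RMA in Transcriptome Analysis Console to summarize 36685 transcript clusters, deposited as log2 intensities. No further normalization or filter was applied. Precision is limited by the number of arrays, and values of different genes are not compared as levels. The table had 0 unmapped columns. The limma p-values set each group difference against the spread of rats within the groups, with variances moderated over all 36685 clusters.

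Genes were named from clusters with 1 symbol (18511 clusters, of which 18394 were updated by Entrez identifier through RefSeq, GRCr8), using the cluster with the highest mean for the 291 genes with several. The comparison used lmFit and eBayes of limma 3.58.1 (R 4.3.3) over all clusters. As in the study, genes were called at an unadjusted p under 0.05, beside Benjamini-Hochberg values over all clusters. An exact permutation test of 3 against 3 rats cannot go below 0.1. The script was tested on simulated data. Named genes are all members, every pathway gene past the threshold and up to 4 genes of each list with the smallest p. Members and the 7 pathway and 14 marker lists were chosen with earlier results of these data known. Alternatives left out rats, blocked on replicate number, or changed the filter, scaling, variance model or choice of cluster. The miRNA arrays of the study were not analysed here. Promoters are RefSeq sequences (GRCr8).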

Additional observations from a re-analysis of the deposited data

How the results depend on the processing

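Of the 10 Notch genes, 1 was past an unadjusted limma p under 0.05. This count was 0 with the replicate number as a block, with each array centred on its median, with the Benjamini-Hochberg threshold and without PPVL rat 1 and sham rat 3 (chosen after seeing the data), and it was 0 to 1 when 1 rat was left out. The 2 pathway genes became 1 with quantile normalization or median centring, 0 with the Benjamini-Hochberg threshold, 4 (Dtx3l, Hdac1, Heyl and Ccnd1, all lower) without PPVL rat 1 and sham rat 3, and 1 to 3 when 1 rat was left out, most without PPVL rat 3 (Dtx3l lower, Numbl and Cdkn1a higher). Over all genes 769 became 463 to 919 when 1 rat was left out, the lowest without PPVL rat 1, and 0 with the Benjamini-Hochberg threshold. The 11 marker genes of 127 measured, beside 4.23% of all genes, became 7 to 19 when 1 rat was left out (7 without PPVL rat 1 or sham rat 3, 19 without PPVL rat 2), 5 without PPVL rat 1 and sham rat 3, and 0 with the Benjamini-Hochberg threshold. The other alternatives stayed within 1.5 times of these counts, though with array weights the 2 pathway genes were Dtx3l and Hdac1.

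Signs turned for small log2 fold changes. Leaving out 1 rat gave Notch1 -0.0218 (without PPVL rat 1) to 0.12, Notch4 -0.0597 to 0.00927, Dll1 -0.0532 (without PPVL rat 1) to 0.17, Jag1 -0.15 to 0.0741 (without PPVL rat 2), Jag2 -0.0830 to 0.0535 (without PPVL rat 2) and Hey1 -0.12 to 0.10 (without PPVL rat 3). Notch4 was positive without PPVL rat 2 or 3 or sham rat 1 or 2, Jag2 without sham rat 2, and Hey1 without PPVL rat 1 or sham rat 2. Without PPVL rat 1 and sham rat 3, Notch1 was -0.0762 and Dll1 -0.11, and Hey1 was 0.000877 with median centring. The cause was not tested. Notch2, Notch3, Dll4 and Hes1 kept a positive sign under all 16 alternatives, some of which could not turn a sign. Blocking, the filters, the choice of cluster and the variance models other than array weights left each member's log2 fold change unchanged. Hes1 could not turn when rats were left out either, because its groups did not overlap. The median of all genes moved by under 0.1 with each scaling (0.00522 with quantile normalization, 0.00926 with median centring).

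Rats of PPVL and sham groups share replicate numbers, but no label says that the numbers pair animals. Deviations of same-numbered rats from their group means correlated at -0.13, 0.14 and 0.12 for numbers 1, 2 and 3. Those of differently numbered rats ran from -0.28 to 0.18. With 3 rats in each group these values show no sign of pairing but cannot exclude it. With the block, Hes1 had an unadjusted limma p-value of 0.0531 and Adam17 one of 0.0996, neither past the threshold, and 696 genes, 2 pathway genes (Cdkn1a higher, Dtx3l lower) and 14 marker genes were past the threshold. With 3 rats in each group, differences within the intervals given could not be told from 0.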

Other observations

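Other cells of the spleen gave few calls at the unadjusted limma threshold, which 2.69% of all genes passed with PPVL higher. Every gene named had an adjusted p = 0.973. Macrophage markers, all 8 measured, had positive log2 fold changes in PPVL against sham spleens, and Mertk, a receptor for the uptake of dying cells, passed the test (0.37, SE 0.09). Its log2 level was 8.94, 8.96 and 8.90 in PPVL rats and 8.42, 8.64 and 8.64 in sham rats. Of the dendritic cell markers, all 9 measured, Flt3, the receptor for the growth factor of this lineage, passed (0.27, SE 0.08), and 5 values were positive and 4 negative. Flt3 was not past the threshold without PPVL rat 1 (unadjusted limma p-value 0.0513). Tlx1, a transcription factor required to form the spleen, was higher by 0.36 (SE 0.09).

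B cell markers, 6 of 8 measured, had no gene past the threshold and a median log2 fold change of 0.10. Erythroid markers, 7 of 9 measured, were all negative, with a median of -0.61 and none past the threshold. Their summed log2 level was 11.60, 13.56 and 12.61 in PPVL rats and 13.53, 13.60 and 12.56 in sham rats, so that PPVL rat 1 was the lowest. Wt1, in the mesothelial list (8 of 8 measured), had a log2 fold change of 0.43 (SE 0.15) while the other 7 values were negative, and Adipoq, in the adipocyte list (6 of 6 measured), had 0.48 (SE 0.17). The calls of Wt1 and Adipoq were lost without PPVL rat 1 (unadjusted limma p-values of 0.0840 and 0.0804).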
